A study of Mus musculus with 12 samples.

Results

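The duodenum of mice lacking Onecut2 was followed from postnatal day 15, when pups still suckle, to day 30, after weaning. Onecut2, a homeodomain transcription factor with a cut domain, is present in the epithelium of the duodenum. The comparison set the 3 arrays of knockout duodenum at day 30 against the 3 arrays of knockout duodenum at day 15, which are 6 of the 12 arrays in the study, and it covered 19938 genes. The other 6 arrays were wild type duodenum at the same ages, 3 at each, and served to show where the age change of the knockout differed.

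All mice were of strain 129. The knockout groups had the Onecut-2 gene ablated, the wild type groups had not, and no treatment was given to either. How the allele was made is not stated in the sources used here. Each array carried 5.5 micrograms of total duodenal RNA from a pool of 5 to 8 mice, males and females mixed. The 3 arrays of a group were thus separate pools, so their spread is that between pools and not between single mice. Values are log2 expression per gene, normalized between arrays by the authors. A change of 1 is 2-fold, and changes of dim genes are understated on this scale. Signal on an array also depends on its probes, so levels are compared between samples and not between genes. Called, higher or lower means an adjusted p under 0.05 in a limma fit over all 19938 genes (Benjamini-Hochberg), and SE is the moderated standard error of a change.

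The suckling duodenum takes up milk. Enterocytes of the suckling small intestine take up milk proteins from the lumen for degradation in lysosomes. They also digest lactose with lactase, burn milk fat and make glucose. At weaning to a diet of starch and protein, lactase falls, the enzymes for sucrose, trehalose and maltose and the peptidases of the brush border rise, and lymphocytes, plasma cells and microbes settle in the gut. Glucocorticoids and the transcription repressor Prdm1 are known regulators of the timing of this switch.

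Onecut2 itself was low at both ages in the knockout. It measured 8.09, 8.13 and 8.20 on the knockout day 15 arrays and 8.24, 8.25 and 8.18 on the knockout day 30 arrays, against 9.55 to 9.69 on the wild type day 15 arrays and 9.50 to 9.63 on the wild type day 30 arrays. No knockout array reached a wild type array. Knockout minus wild type was -1.50 on the log2 scale at day 15 (limma adjusted p = 2.0e-08) and -1.36 at day 30 (limma adjusted p = 8.8e-08). The position of its probes against the deletion was not analysed here, and the signal that is left is no measure of remaining transcript. The value did not pass for a change with age in the knockout (0.08, SE 0.06, limma adjusted p = 0.32). Neither did those of the related factors Onecut1 (0.15, limma adjusted p = 0.16) and Onecut3 (0.00, limma adjusted p = 0.99).

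Markers of the duodenum were read on the knockout arrays. Pdx1, a transcription factor of the duodenum and pancreas, ran from 9.69 to 10.25 over the 6 knockout arrays, and the Brunner gland mucin Muc6 from 11.73 to 12.45. Pdx1 is shared with pancreas, and Muc6 stands on the list of stomach and Brunner gland genes. Neither thus sets duodenum apart from these organs. Slc10a2, the bile acid transporter of the ileum, lay between 5.79 and 6.37, where the 25th percentile of all gene means was 6.20. Array medians over all features ran from 7.199 to 7.255 across the 12 arrays. Xist, which marks female RNA, lay between 10.43 and 10.78 at day 15 and between 10.33 and 10.81 at day 30 in the knockout. The Y-linked Kdm5d read 8.06, 7.94 and 7.77 at day 15 and 7.51, 7.70 and 6.82 at day 30. Both sexes were present on each array. The sex-linked list had 0 of 4 members called in the knockout, against 2 without knockout day 30 replicate 2. In wild type 1 of the 4 was lower (25%, against 17.0% of all genes). The median change of this list was -0.66 in the knockout and 0.20 in wild type. Its differences between the genotypes' age changes ran from -0.98 to 1.03, and 0 of 4 passed. Knockout day 15 replicate 1 stood apart from the other day 15 arrays in some lists: it was low for interferon-stimulated and epithelial defence genes and high for stomach and Brunner gland genes, as given with those genes.

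Without Onecut2 the duodenum still changed broadly with age. Of 19938 genes, 2753 (13.8%) were higher and 3425 (17.2%) lower at day 30. The counts of the gene lists below are to be read against these shares. Most changes were small. Among the calls, 2028 rises and 2366 falls were under 0.5 on the log2 scale, while 220 genes (1.10%) rose and 241 (1.21%) fell at least 2-fold. There were 50 rises and 50 falls of at least 4-fold, a log2 change of 2. The 3 values at day 30 all lay above the 3 at day 15 for 4165 genes (20.9%) and all below for 4375 (21.9%), and 6042 of the 6178 called genes were among these. Over all genes the median change was 0.026. The array median over genes was lower by 0.05 at day 30, and with each array centred on its median the calls became 4068 higher and 2815 lower, so the balance of small rises and falls depends on the scaling.

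The 12 largest falls each exceeded 10-fold. Lect2, which encodes a secreted chemotactic protein, read 11.03, 11.37 and 11.43 at day 15 and 5.31, 6.39 and 6.07 at day 30, a change of -5.35 (SE 0.23, limma adjusted p = 5.1e-09) or 40.9-fold. Smcp, known as a cysteine-rich protein of sperm mitochondria, read 9.66, 10.04 and 9.91 at day 15 and 5.18, 5.00 and 4.96 at day 30 (-4.83, SE 0.14, limma adjusted p = 3.4e-10). For both genes the ages lay far apart, with more than 4 log2 units between the nearest arrays. Cubn, Mamdc4, Ifit2, Ifi202b and Ifit3 are given with their groups. The other falls among the 12 were those of the phosphate transporter Slc34a2 (-4.38), the steroid dehydrogenase Hsd3b3 (-4.12), Tdrp (-3.65), Paqr9 (-3.55) and St3gal5, the sialyltransferase that makes ganglioside GM3 (-3.46). The SEs of these last 5 ran from 0.11 to 0.18.

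Rises of the same order were spread over epithelium and immune cells. Immunoglobulin heavy and light chain genes, several of which rose as much, were left out of this ranking, and Ighm and Igha are given with the lymphocyte genes. Jchain, which joins immunoglobulin A into dimers, read 7.66, 6.90 and 7.71 at day 15 and 11.85, 11.92 and 11.99 at day 30 (4.50, SE 0.30, limma adjusted p = 2.1e-07, 22.6-fold). The sulfotransferase Sult6b2 went from 7.91, 8.67 and 7.85 to 12.65, 12.48 and 12.41 (4.37, SE 0.17, limma adjusted p = 2.6e-09, 20.7-fold). In both genes the day 30 arrays lay close together and the day 15 arrays were more spread. The steroid dehydrogenase Hsd17b6 rose by 3.61, the sulfate transporter Slc13a1 by 3.48, the cytochrome P450 Cyp2b10 by 3.26, the phosphodiesterase-like Smpdl3b by 3.24 and the galactosyltransferase B3galt5 by 3.22. Bcl2l15, a gene of the Bcl2 family, rose by 3.20, the sugar transporter Slc2a7 by 3.12, the cytotoxic granule enzyme Gzma by 2.89, the epithelial tyrosine kinase Ptk6 by 2.86 and the oxidase Duox2 by 2.81. SEs of these 10 rises ran from 0.07 to 0.25.

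**Figure D1:**
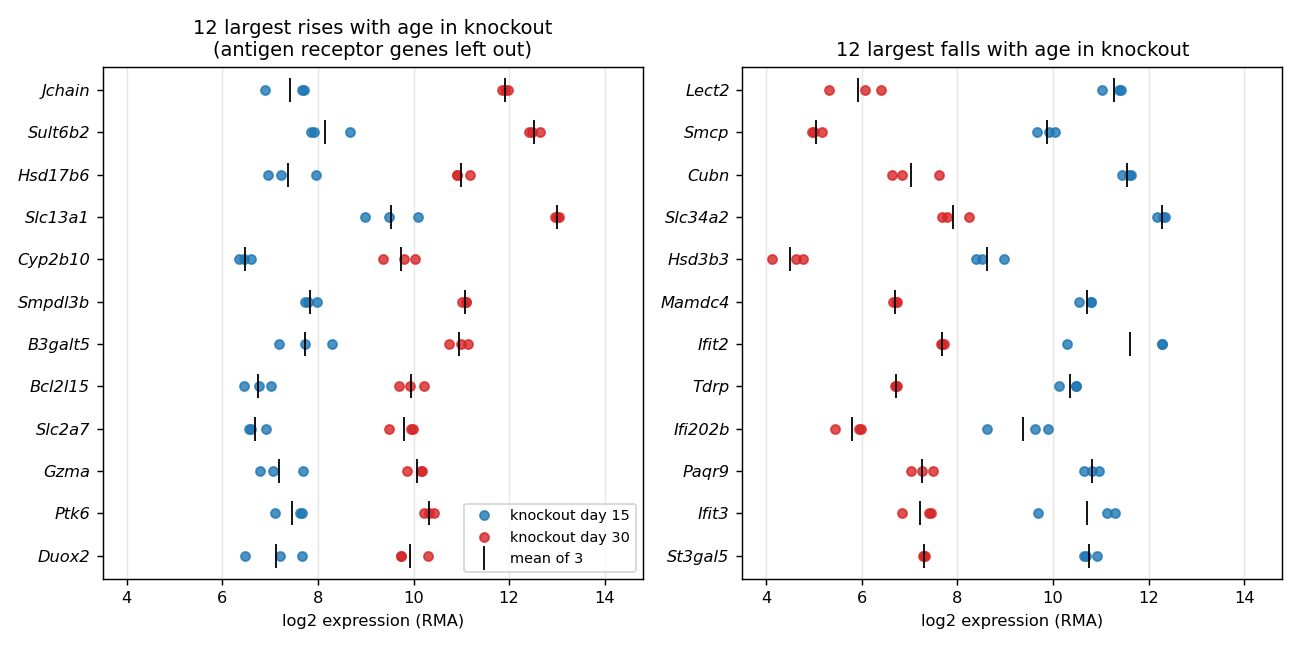
Log2 expression (RMA, horizontal axis) of the 12 genes with the largest rises once antigen receptor genes were left out (left) and the 12 with the largest falls (right) on the 6 knockout arrays, where points are arrays (blue for day 15, red for day 30) and black ticks are means of 3. In each gene the ages do not overlap, which the choice of these genes required, and Ifit2, Ifit3 and Ifi202b each have 1 day 15 array well below the other 2.

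Genes that take up milk proteins from the gut lumen fell. Of 9 measured genes of apical endocytosis, 6 were lower and 0 higher (median -0.49). Cubn, the endocytic receptor cubilin, read 11.62, 11.60 and 11.44 at day 15 and 6.64, 7.62 and 6.83 at day 30 (-4.52, SE 0.21, limma adjusted p = 1.0e-08, 23.0-fold). Mamdc4, an apical endosomal glycoprotein, went from 10.80, 10.79 and 10.54 to 6.65, 6.71 and 6.74 (-4.01, SE 0.13, limma adjusted p = 6.3e-10). The day 30 values of Mamdc4 lay within 0.1 of each other, while one day 30 array held more Cubn than the rest. The changes were -3.13 for the folate receptor Folr1 and -2.88 for the endocytic adaptor Dab2, each with an SE of at most 0.16. Falls in the adaptor subunit Ap1s3 (-0.49) and in Amn, the membrane anchor of cubilin (-0.40), were smaller.

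Genes of the lysosome, where such protein is degraded, also fell. Of 22 genes on a list of lysosomal hydrolases, which also holds Lamp1, Lamp2 and Psap, 18 were lower and 0 higher (median -0.54). The protease cathepsin L, encoded by Ctsl, read 11.81, 12.07 and 12.08 at day 15 and 9.75, 9.68 and 9.85 at day 30 (-2.23, SE 0.10, limma adjusted p = 6.3e-09). The sialidase Neu1 fell by 1.81, the beta-galactosidase Glb1 by 1.33, the peptidase Tpp1 by 0.96, the mannosidases Man2b2 and Man2b1 by 0.87 and 0.62, and the hexosaminidase Hexa by 0.78. Centring the arrays turned 1 member of this list to higher.

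Enzymes that let the suckling gut make glucose fell steeply, while others of the same list rose. Of 13 genes of gluconeogenesis and the urea cycle 7 were lower and 4 higher. The glucose-releasing phosphatase G6pc read 11.37, 11.42 and 11.19 at day 15 and 7.97, 8.77 and 7.88 at day 30 (-3.12, SE 0.19, limma adjusted p = 1.1e-07). The rate-controlling enzyme Pck1 fell by 2.89, fructose bisphosphatase Fbp1 by 2.00 and the glucose 6-phosphate carrier Slc37a4 by 1.14. In the other direction, arginase Arg2 (1.63, SE 0.22) and pyruvate carboxylase Pcx (1.33, SE 0.12) rose, both with knockout day 15 replicate 1 above the other day 15 arrays.

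Genes that burn fatty acids fell. Of 24 genes of fatty acid oxidation and ketone synthesis 16 were lower and 1 higher (median -0.47). The thioesterase Acot1 read 9.24, 8.98 and 9.26 at day 15 and 6.42, 6.25 and 6.22 at day 30 (-2.86, SE 0.08, limma adjusted p = 3.5e-10). Acot2, a close relative whose probes may share signal with it, fell by 1.84, the thiolase Acaa2 by 1.24, Cpt1a, which admits fatty acids to mitochondria, by 0.80, the isomerase Eci1 by 0.73 and the dehydrogenase Hadh by 0.68. The direct repeat that nuclear receptors bind, AGGNCA in 2 copies with 1 base of any kind between, was sought on both strands in the 250 bases before the start of 20 of these genes. It was found in 0, against 0.338% of 32851 RefSeq promoters, which says only that these letters are not in this window.

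Genes that package dietary fat were more often lower than higher. Of 23 genes of fat absorption and chylomicrons 13 were lower (56.5%, against 17.2% of all genes) and 4 higher (17.4%, against 13.8%), the latter 2 without knockout day 15 replicate 2. The apolipoprotein Apoc3 read 13.03, 13.07 and 13.18 at day 15 and 10.95, 11.01 and 10.94 at day 30 (-2.13, SE 0.08, limma adjusted p = 1.8e-09). The lipid droplet coat protein Plin2 fell by 1.90, the triglyceride synthesis enzyme Dgat2 by 0.94, the fatty acid binding protein Fabp2 by 0.93, the sterol exporter Abca1 by 0.58 and the chylomicron apolipoprotein Apoa4 by 0.51. Gpat3, which starts triglyceride synthesis, rose by 0.77. Among 12 genes of bile acid transport and of its receptor, 4 were lower (33.3%, against 17.2% of all genes). The 2 higher were 16.7%, near the 13.8% of all genes, and were 1 with dim genes left out. The bile acid receptor gene Nr1h4 fell by 0.34, its target Nr0b2 by 0.86 and the basolateral transporter subunit Slc51a by 0.55, and the exporter Abcc3 rose by 1.21.

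Lactase fell and the enzymes for other sugars rose without Onecut2. Lactase, encoded by Lct, read 13.16, 13.12 and 13.22 at day 15 and 11.20, 11.67 and 11.34 at day 30 (-1.76, SE 0.14, limma adjusted p = 1.2e-06). Trehalase, encoded by Treh, went from 8.58, 8.38 and 8.34 to 9.99, 10.11 and 9.96 (1.59, SE 0.11, limma adjusted p = 3.2e-07). Sucrase-isomaltase, encoded by Sis, went from 12.64, 12.31 and 12.51 to 13.50, 13.61 and 13.49 (1.05, SE 0.11, limma adjusted p = 1.2e-05). The ages did not overlap in any of the 3 genes. Of 12 disaccharidase and sugar transport genes 8 were higher, and lactase was the 1 lower (median 0.92). The fructose transporter Slc2a5 rose by 1.19, maltase-glucoamylase Mgam by 0.98 and the sodium-glucose transporter Slc5a1 by 0.86.

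Peptidase genes of the brush border rose as well. Of 14 genes on a list of brush-border peptidases, which also holds Treh and the mucin Muc13, 11 were higher and 2 lower (median 0.68). The aminopeptidase Enpep read 9.66, 10.37 and 10.53 at day 15 and 11.92, 12.02 and 11.88 at day 30 (1.75, SE 0.18, limma adjusted p = 8.4e-06). Dipeptidase Dpep1 rose by 1.56, the dipeptidyl peptidase Dpp4 by 1.12, the meprin subunit Mep1b by 0.78 and neprilysin, encoded by Mme, by 0.58. The other meprin subunit, Mep1a, fell by 2.68 (10.53, 10.83 and 10.76 at day 15 against 8.15, 8.30 and 7.65 at day 30). Tmprss15, encoding enteropeptidase, which activates trypsinogen, read 6.94, 5.59 and 5.77 at day 15 and 7.49, 8.06 and 7.83 at day 30. It rose by 1.69 (SE 0.27, limma adjusted p = 3.2e-04), and in wild type by 1.46.

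Carriers of amino acids, peptides and ions had large changes in a few genes. Of 17 amino acid and peptide transport genes 8 were higher and 2 lower, the latter 1 when the arrays were centred or without knockout day 15 replicate 2, knockout day 15 replicate 3 or knockout day 30 replicate 1. Slc6a14 rose by 1.73, the glutamate transporter Slc1a1 by 1.13, Slc36a1 by 1.12, the peptide transporter Slc15a1 by 0.78 and Slc6a19, the main carrier of neutral amino acids, by 0.34, while Slc7a7 fell by 0.35. Of 13 genes of phosphate, sulfate and citrate transport 5 were higher (38.5%, against 13.8% of all genes) and 3 lower (23.1%, against 17.2%). Slc13a1, the sulfate transporter, read 8.99, 10.09 and 9.50 at day 15 and 13.04, 13.01 and 12.96 at day 30, while the phosphate transporter Slc34a2 read 12.18, 12.31 and 12.35 and then 7.79, 8.24 and 7.67. The citrate transporter Slc13a2 rose by 2.72 and the anion exchanger Slc26a6 by 1.68, and the phosphate transporters Slc34a3 and Slc20a2 fell by 0.91 and 0.64.

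Of 11 genes of calcium uptake and vitamin D response 5 were higher, 2 were lower and 4 did not pass (median 0.14). The share lower, 18.2%, was near the 17.2% of all genes. The calcium channel Trpv6 read 10.02, 9.23 and 9.23 at day 15 and 10.84, 10.70 and 11.01 at day 30 (1.35, SE 0.21, limma adjusted p = 3.0e-04). The vitamin D receptor Vdr rose by 1.49 and the calcium-binding protein S100g by 1.09, and in all of these knockout day 15 replicate 1 lay above the other day 15 arrays. The pore-forming claudin Cldn2 fell by 1.21. Among 13 genes of iron and heme handling 4 were higher, with the folate and heme carrier Slc46a1 at 0.65, and 5 were lower, with heme oxygenase Hmox1 at -0.52. The 5 were 3 when arrays were centred or without knockout day 15 replicate 1, knockout day 15 replicate 2 or knockout day 30 replicate 2.

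Cholesterol synthesis rose as a group. Of 20 measured genes 18 were higher and 0 lower (median 0.61). Squalene epoxidase, encoded by Sqle, read 8.94, 8.94 and 8.95 at day 15 and 10.08, 9.99 and 9.81 at day 30 (1.02, SE 0.08, limma adjusted p = 9.5e-07). Cyp51 rose by 1.00, Idi1 by 0.96, Fdps by 0.91, Lss by 0.66, Mvd by 0.66 and Sc5d by 0.30, all enzymes on the path from mevalonate to cholesterol. Hmgcs1, which makes the precursor of mevalonate, was named here for its promoter after its value had been seen. It read 10.10, 10.11 and 10.05 at day 15 and 10.63, 10.78 and 10.60 at day 30 (0.58, SE 0.07, limma adjusted p = 3.6e-05). The sterol response element TCACNCCAC was sought on both strands in the 250 bases before the start, and it occurred in 1 of 16 list members with a RefSeq promoter (6.25%), against 1.05% of 32851 promoters and 1.20% of 15614 genes tested. That 1 was Hmgcs1, whose window is chr13:119690101-119690350 on the plus strand of GRCm38.p6 and is shown with the match in capitals.
Hmgcs1: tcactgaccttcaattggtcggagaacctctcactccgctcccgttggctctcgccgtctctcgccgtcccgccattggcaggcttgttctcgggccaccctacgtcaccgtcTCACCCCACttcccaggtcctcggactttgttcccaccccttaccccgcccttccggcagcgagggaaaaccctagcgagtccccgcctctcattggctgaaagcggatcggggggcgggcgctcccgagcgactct

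Enzymes of drug and steroid metabolism held wide rises and falls. Of 32 genes 11 were higher (34.4%, against 13.8% of all genes) and 6 lower (18.8%, near the 17.2% of all genes), with a median of 0.06. Cyp2b10, a drug-inducible cytochrome P450, read 6.46, 6.35 and 6.60 at day 15 and 9.81, 10.04 and 9.36 at day 30. Hsd17b6 read 7.97, 6.95 and 7.23 and then 10.90, 11.19 and 10.90, while Hsd3b3 read 8.38, 8.52 and 8.98 and then 4.62, 4.11 and 4.78. Cyp2b10 and Hsd17b6 rose and Hsd3b3 fell, with no overlap between ages in any of them. The carboxylesterase Ces1f rose by 2.63 and the glutathione transferase Gstm1 by 1.34.

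Of 18 genes of transferases that build the glycan coat of the epithelium 9 were higher, 4 were lower and 5 did not pass (median 0.16). Sialyltransferase genes went both ways. The sialyltransferase St3gal5 read 10.64, 10.93 and 10.69 at day 15 and 7.33, 7.27 and 7.29 at day 30, and St3gal4 fell by 2.89, while St6gal1 and St3gal6, named after their values had been seen, rose by 0.85 and 0.41. The galactosyltransferase B3galt5 went from 7.18, 8.30 and 7.73 to 11.13, 10.99 and 10.73, and the fucosyltransferase Fut2 from 8.52, 9.76 and 8.91 to 11.91, 11.72 and 11.26 (2.57, SE 0.25, limma adjusted p = 6.4e-06). In both rising genes knockout day 15 replicate 2 was the highest of the day 15 arrays. The mucin-branching enzyme Gcnt3 rose by 1.16.

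Genes on the list of the mitochondrial respiratory chain rose by small amounts in nearly every measured case. Of 29 genes 26 were higher and 0 lower (median 0.30). The list also holds ATP synthase subunits and the mobile electron carrier cytochrome c. Cytochrome c, encoded by Cycs, read 11.51, 11.76 and 11.61 at day 15 and 12.40, 12.50 and 12.41 at day 30 (0.81, SE 0.07, limma adjusted p = 1.4e-06). Uqcrc1 rose by 0.73, Uqcrfs1 by 0.60 and Cyc1 by 0.53, all of complex III, and Cox5a of complex IV by 0.47. The coactivator Ppargc1a, a regulator of mitochondrial genes, read 8.80, 8.60 and 8.71 and then 9.77, 9.91 and 9.72 (1.10, SE 0.10, limma adjusted p = 2.7e-06).

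**Figure D2:**
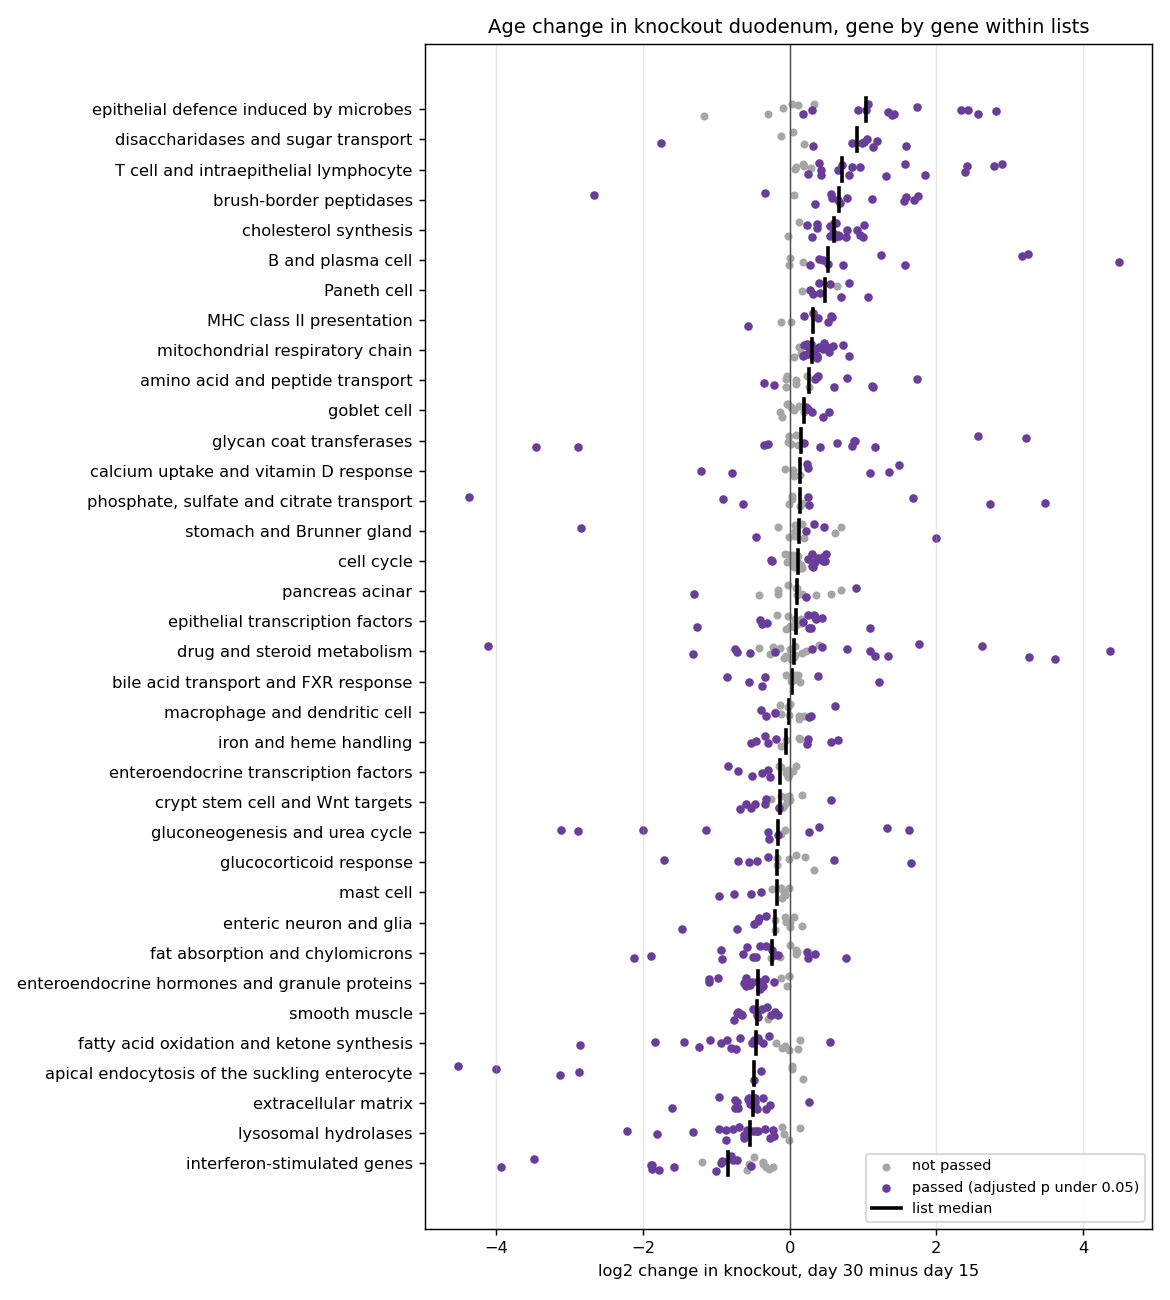
Log2 change with age in the knockout (day 30 minus day 15, horizontal axis) for each measured gene of the lists, ordered by median, where a purple point passed the test at an adjusted p under 0.05, a grey point did not, and the black bar is the list's median. Interferon-stimulated, lysosomal and matrix lists lie to the left with medians from -0.84 to -0.50, and epithelial defence lies at the right end with a median of 1.04.

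Genes of epithelial defence that microbes induce were higher after weaning. Of 19 genes 13 were higher and 0 lower (median 1.04), or 10 higher and 1 lower without knockout day 15 replicate 1. The mean of the list was 8.28, 9.05 and 8.87 on the day 15 arrays and 9.83, 9.72 and 9.56 on the day 30 arrays, so that array was the lowest and the ages did not overlap. Duox2, which makes hydrogen peroxide at the cell surface, read 6.47, 7.66 and 7.21 at day 15 and 10.30, 9.75 and 9.73 at day 30 (2.81, SE 0.24, limma adjusted p = 2.1e-06). The antimicrobial lectin Reg3a rose by 2.34, the Duox2 partner Duoxa2 by 1.74, the immunoglobulin carrier Pigr by 1.34 and the chemokine Ccl28, which draws plasma cells, by 1.04. Reg3g read 11.50, 13.27 and 12.99 at day 15 and 13.99, 14.02 and 13.93 at day 30 (1.39, SE 0.42, limma adjusted p = 0.022), with replicate 1 low at day 15. Its call was lost without that array, knockout day 30 replicate 1 or knockout day 30 replicate 2 (limma adjusted p up to 0.076).

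Transcripts of Paneth cells, which make antimicrobial proteins at the crypt base, rose. Of 10 genes 8 were higher and 0 lower (median 0.48). In bulk RNA such as this, more cells of a type and more RNA per cell cannot be told apart. The matrix protease Mmp7 read 9.80, 9.83 and 10.06 at day 15 and 10.90 to 11.02 at day 30 (1.07, SE 0.08, limma adjusted p = 7.0e-07). The phospholipase Pla2g2a rose by 0.81, the stress protein Nupr1 by 0.70, Spink4 by 0.55, lysozyme Lyz1 by 0.41, the lectin Itln1 by 0.40 and the defensin Defa24 by 0.31. Lyz1 and Defa24 have near-identical relatives that may share their probes. Of 15 goblet cell genes 6 were higher and 0 lower (median 0.20), with 1 lower without knockout day 15 replicate 1, among them the goblet cell factor Creb3l1 (0.45) and the mucin Muc2 (0.22). The call of Muc2 was lost in a fit on the 6 knockout arrays and without knockout day 15 replicate 1, knockout day 15 replicate 2 or knockout day 30 replicate 1 (limma adjusted p up to 0.098).

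Hormone cell genes fell. Of 18 genes of enteroendocrine hormones and granule proteins 13 were lower and 0 higher (median -0.43). Gip, an incretin hormone of the duodenum, read 11.67, 11.67 and 11.63 at day 15 and 10.61, 10.54 and 10.51 at day 30 (-1.11, SE 0.06, limma adjusted p = 2.3e-08). Neurotensin, encoded by Nts, fell by 1.10, somatostatin Sst by 0.98, peptide YY, encoded by Pyy, by 0.59 and the granule protein Chga by 0.59, while glucagon, encoded by Gcg, was at -0.02 (limma adjusted p = 0.95). Of 14 enteroendocrine transcription factors 6 were lower and 0 higher, among them Etv1 (-0.85), Rfx6 (-0.70), Isl1 (-0.52) and Neurod1 (-0.39).

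Of 18 genes of crypt stem cells and Wnt targets 7 were lower (38.9%, against 17.2% of all genes) and 1 higher, or 2 higher with centred arrays or without knockout day 15 replicate 1. The stem cell marker Lgr5 read 8.14, 7.84 and 7.93 at day 15 and 7.39, 7.46 and 7.29 at day 30 (-0.59, SE 0.09, limma adjusted p = 2.0e-04), and the Wnt inhibitor Notum fell by 0.68. Of 30 cell cycle genes 10 were higher (33.3%, against 13.8% of all genes) and 2 lower, with a median of 0.11. The 10 were 16 with centred arrays, and the 2 were 1 without knockout day 15 replicate 3 or knockout day 30 replicate 1. The kinase Plk1 rose by 0.49 and the nucleotide reductase Rrm2 by 0.45, while Mki67 did not pass (0.11, limma adjusted p = 0.18). Of 11 tuft cell genes 2 were higher (18.2%, near the 13.8% of all genes) and 1 lower (9.09%, against 17.2%). The 2 were 1 without knockout day 15 replicate 3, knockout day 30 replicate 1 or knockout day 30 replicate 3.

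Lymphocyte transcripts rose. Of 13 B and plasma cell genes 10 were higher and 0 lower (median 0.52), and of 21 T cell and intraepithelial lymphocyte genes 16 were higher and 0 lower (median 0.71). The immunoglobulin M heavy chain Ighm read 6.98, 6.78 and 6.92 at day 15 and 10.08, 10.22 and 10.11 at day 30 (3.24, SE 0.10, limma adjusted p = 7.0e-10). The immunoglobulin A heavy chain Igha went from 8.45, 7.50 and 7.93 to 10.87, 11.49 and 11.02 (3.17, SE 0.22, limma adjusted p = 2.7e-07). Both genes were well separated by age on every array. Mzb1 and Pou2af1, genes of antibody-secreting cells and their precursors, rose by 1.57 and 1.24. Granzymes Gzma and Gzmb of cytotoxic cells rose by 2.89 and 2.78, the chemokine Ccl5 by 2.42, the T cell receptor chains Cd3g and Cd3e by 2.39 and 0.84 and the coreceptor Cd8a by 1.84.

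Antigen presentation by MHC class II had 6 of 9 genes higher and 1 lower (median 0.31). The invariant chain Cd74 read 10.65, 10.90 and 10.98 at day 15 and 11.58, 11.31 and 11.39 at day 30 (0.58, SE 0.10, limma adjusted p = 8.2e-04). H2-Ab1 rose by 0.56, H2-DMa by 0.52 and H2-Eb1 by 0.31, and cathepsin S, encoded by Ctss, fell by 0.57. Of 15 macrophage and dendritic cell genes 3 were higher (20%, against 13.8% of all genes) and 3 lower (20%, near the 17.2% of all genes). The higher count was 1 without knockout day 15 replicate 2 or knockout day 30 replicate 1, and the lower count was 1 without knockout day 15 replicate 3. Lyz2 was the largest of the rises at 0.61, a gene whose probes may share signal with Lyz1. Of 10 mast cell genes 4 were lower and 0 higher, with the protease Mcpt2 at -0.97.

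Genes of the gut wall fell. Of 22 extracellular matrix genes 21 were lower and 1 higher (median -0.50), the latter 0 without knockout day 15 replicate 2, and of 16 smooth muscle genes 14 were lower and 0 higher (median -0.44). Periostin, encoded by Postn, read 10.36, 10.23 and 10.41 at day 15 and 8.70, 8.76 and 8.73 at day 30 (-1.60, SE 0.12, limma adjusted p = 8.2e-07). The basement membrane laminins Lamc1, Lama4, Lama2 and Lamb1 fell by 0.75, 0.75, 0.73 and 0.71. Smooth muscle myosin Myh11 went from 12.19, 12.09 and 12.17 to 11.47, 11.51 and 11.48 (-0.67, SE 0.06, limma adjusted p = 2.8e-06), and smooth muscle actin Acta2 fell by 0.70. Of 14 genes of enteric neurons and glia 6 were lower and 0 higher, with 1 higher without knockout day 15 replicate 2, among them the receptor Ret (-1.47), Stmn2 (-0.72) and Prph (-0.49). The mean of the matrix list was 9.94, 9.84 and 9.96 on the day 15 arrays and 9.35, 9.38 and 9.35 on the day 30 arrays, and that of the muscle list 10.25, 10.15 and 10.33 and then 9.80, 9.82 and 9.77. Both thus moved with age beside every epithelial list given here, and their part in those changes was not tested.

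Transcripts of neighbouring organs were checked in the same way. Of 16 stomach and Brunner gland genes 4 were higher (25%, against 13.8% of all genes) and 2 lower (12.5%, against 17.2%). The 2 lower were 1 with dim genes left out. The mean of the list was 9.16, 8.75 and 8.67 on the day 15 arrays and 8.89, 8.96 and 9.01 on the day 30 arrays, so replicate 1 of day 15 lay above each day 30 array. Chymosin, the milk-clotting protease encoded by Cym, read 11.40, 11.61 and 11.79 at day 15 and 8.88, 8.81 and 8.57 at day 30 (-2.85, SE 0.12, limma adjusted p = 3.9e-09). The gastric mucin Muc5ac read 8.18, 6.98 and 6.90 and then 8.97, 9.46 and 9.61 (1.99, SE 0.46, limma adjusted p = 0.0047). Knockout day 15 replicate 1 was the high one of the day 15 arrays for Muc5ac. Of 14 pancreas acinar genes 2 were higher (14.3%, near the 13.8% of all genes) and 1 lower (7.14%, against 17.2%). The lipase-related Pnliprp1 was that lower one at -1.30. The 2 were 4 with centred arrays or without knockout day 15 replicate 3, 1 without knockout day 15 replicate 1, knockout day 15 replicate 2 or knockout day 30 replicate 3, and 0 without knockout day 30 replicate 2. The 1 lower became 2 without knockout day 30 replicate 3. Of 13 pancreatic protease and inhibitor genes 3 were higher (23.1%, against 13.8% of all genes) and 0 lower, with the trypsinogen gene Prss3 at 1.65. The 3 were 5 with centred arrays or without knockout day 15 replicate 3, and 1 without knockout day 15 replicate 2, knockout day 30 replicate 2 or knockout day 30 replicate 3. The mean of the acinar list was 11.54, 11.24 and 11.72 at day 15 and 11.35, 11.59 and 11.81 at day 30. That of the protease list, which shares genes with it, ran from 11.78 to 12.55 over the 6 knockout arrays. The mean of all genes was 7.58 to 7.59, so both lists were bright on every knockout array, and they varied between pools of an age. The source of these transcripts was not tested. The erythroid list had 0 of 3 genes called, and the adipocyte list 3 of 7 lower, with the lipase Lpl at -0.72.

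Genes that interferon induces fell between the ages, unevenly across arrays. Of 24 genes 14 were lower and 0 higher (median -0.84), and every measured member had a change between -3.94 and -0.23. Ifit2 read 10.29, 12.28 and 12.29 at day 15 and 7.65, 7.73 and 7.67 at day 30 (-3.94, SE 0.48, limma adjusted p = 4.3e-05). Ifit3 read 9.69, 11.14 and 11.30 and then 6.83, 7.45 and 7.39 (-3.49, SE 0.41, limma adjusted p = 2.8e-05), and Ifit1 read 10.96, 12.29 and 12.33 and then 9.46, 10.16 and 10.59 (-1.79, SE 0.38, limma adjusted p = 0.0028). Knockout day 15 replicate 1 was lower than the other day 15 arrays by more than 1 log2 unit in all 3 genes, which encode proteins that bind viral RNA or restrain its translation. The transcription factor Irf7 fell by 0.94, Xaf1 by 0.93 and the RNA sensor Ddx58 by 0.71. The mean of the list was 9.33, 10.69 and 10.65 on the day 15 arrays and 8.73, 9.18 and 9.32 on the day 30 arrays. Replicate 1 of day 15 thus lay level with the highest day 30 array. Without it all 24 genes were lower, and the count was 7 without knockout day 15 replicate 2, without knockout day 15 replicate 3 or without knockout day 30 replicate 1.

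Promoters of this group were set beside the values, since its members moved together from array to array. The core of the interferon-stimulated response element, GAAA in 2 copies with 2 bases of any kind between, was sought on both strands in the 250 bases before the start. It occurred in 7 of 16 members with a RefSeq promoter (43.8%), namely Ifit1, Ifit3, Oas1a, Oas3, Rsad2, Stat2 and Bst2, against 2.98% of 32851 promoters and 3.40% of 15614 genes tested. Of the 11 called members with a promoter, 4 held it. The windows of Ifit3 (chr19:34583279-34583528) and Ifit1 (chr19:34640639-34640888), both on the plus strand of GRCm38.p6, are shown. Of the members holding the element, these 2 had the smallest p for the knockout age change, and each holds 2 matches. Capitals mark the matches, which read on the opposite strand and begin 156 and 122 bases before the start in Ifit3 and 104 and 85 bases before it in Ifit1.
Ifit3: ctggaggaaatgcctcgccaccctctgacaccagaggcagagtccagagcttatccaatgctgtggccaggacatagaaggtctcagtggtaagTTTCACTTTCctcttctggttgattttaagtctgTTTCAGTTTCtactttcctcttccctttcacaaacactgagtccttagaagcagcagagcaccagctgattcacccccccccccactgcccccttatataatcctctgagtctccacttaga
Ifit1: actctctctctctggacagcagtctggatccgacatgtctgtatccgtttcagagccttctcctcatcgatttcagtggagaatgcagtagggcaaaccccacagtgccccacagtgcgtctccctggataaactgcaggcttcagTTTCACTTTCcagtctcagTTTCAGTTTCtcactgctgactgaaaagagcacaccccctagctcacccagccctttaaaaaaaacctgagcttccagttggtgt

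**Figure D3:**
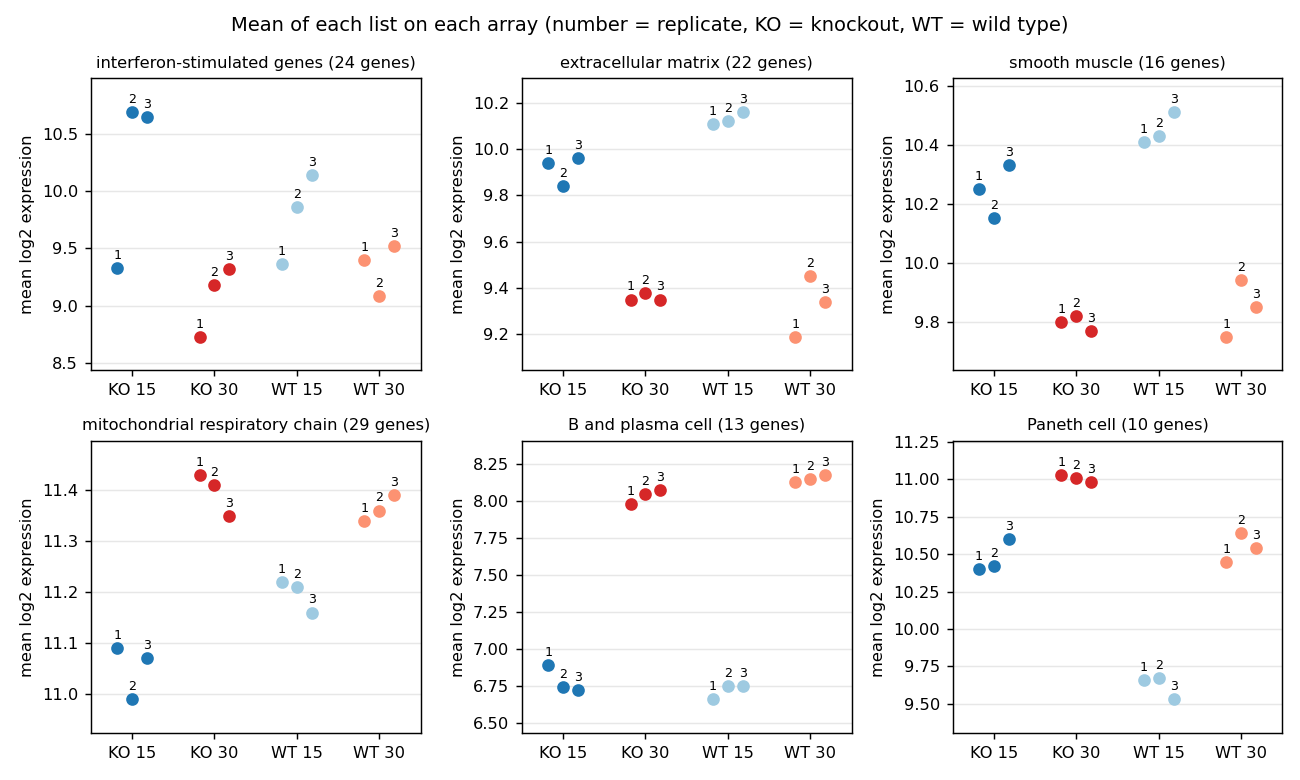
Mean log2 expression of 6 gene lists (vertical axis, a scale of its own in each panel) on each of the 12 arrays, by group (KO is knockout, WT is wild type, 15 and 30 are days) with the replicate number over each point. Knockout day 15 replicate 1 reads 9.33 for the interferon list against 10.69 and 10.65 for the other 2, level with the highest knockout day 30 array at 9.32. In the other 5 lists the gap between the knockout ages is wider.

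Some regulators of the switch changed in the knockout. Prdm1, a repressor present in the suckling epithelium that also acts in lymphocytes, read 9.16, 9.69 and 9.65 at day 15 and 8.19, 8.36 and 8.15 at day 30 (-1.27, SE 0.15, limma adjusted p = 2.4e-05). Of 23 epithelial transcription factors 9 were higher (39.1%, against 13.8% of all genes) and 4 lower (17.4%, near the 17.2% of all genes). Pdx1 rose by 0.44, Klf5 by 0.34 and Gata4 by 0.27, whereas Creb3l3 fell by 0.41 and Gata6 by 0.38. The intestinal factors Hnf4a (0.06, limma adjusted p = 0.40) and Cdx2 (-0.17, limma adjusted p = 0.070) did not pass. Of 13 glucocorticoid response genes 5 were lower (38.5%, against 17.2% of all genes) and 2 higher (15.4%, near the 13.8% of all genes). The receptor chaperone Fkbp5 read 8.38, 7.91 and 7.92 and then 9.90, 9.67 and 9.62 (1.66, SE 0.14, limma adjusted p = 2.2e-06), and Cebpd rose by 0.60. The metallothioneins Mt2 and Mt1 fell by 1.72 and 0.71, Errfi1 by 0.55 and Per1 by 0.44. Ada, whose adenosine deaminase is abundant in the duodenum of weaned mice, read 12.12, 11.44 and 11.85 and then 12.80, 12.57 and 12.60 (0.85, SE 0.17, limma adjusted p = 0.0017).

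The next question was how far the knockout's change differed from that of wild type, which shares no arrays with it. In wild type 2455 genes (12.3%) were higher and 3394 (17.0%) lower at day 30. The 196 genes that rose at least 2-fold in wild type had a median change of 1.46 there and 1.40 in the knockout, where 193 of them were called higher. The 214 that fell at least 2-fold had a median of -1.30 in wild type and -1.23 in the knockout, where 207 were called lower. Read from the knockout side, its 220 rises had medians of 1.40 in the knockout and 1.33 in wild type, and its 241 falls of -1.38 and -1.11. A median is drawn toward larger values in the genotype in which the genes were picked. The fit shares 1 variance per gene between the genotypes.

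The test of the difference itself, the age change in knockout minus that in wild type, passed for 46 genes above (0.231%) and 45 below (0.226%), 91 in all, with 1764 at an unadjusted p under 0.05. This count rests on single arrays. It was 49 without knockout day 15 replicate 2, 56 without knockout day 15 replicate 3, 47 without wild type day 15 replicate 2, 60 without wild type day 15 replicate 3, 47 without wild type day 30 replicate 3 and 123 without knockout day 15 replicate 1. Of the 37 differences of named genes, 17 were not called with at least 1 array left out, with a highest adjusted p for each between 0.055 and 0.13. They were those of Sult6b2, Gsdmc2, C8b, Ces2a, Abcb1a, Pepd, Ndrg2, Otop3, Dab2, Man2b2, Mme, Cldn2, Idi1, Sc5d, Abca1, Gcnt3 and Cblif. In 58 of the 91 genes the genotypes lay farther apart at day 15, and in 33 at day 30. The sex mix of the pools was not in the fit, and its part in these differences was not tested.

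**Figure D4:**
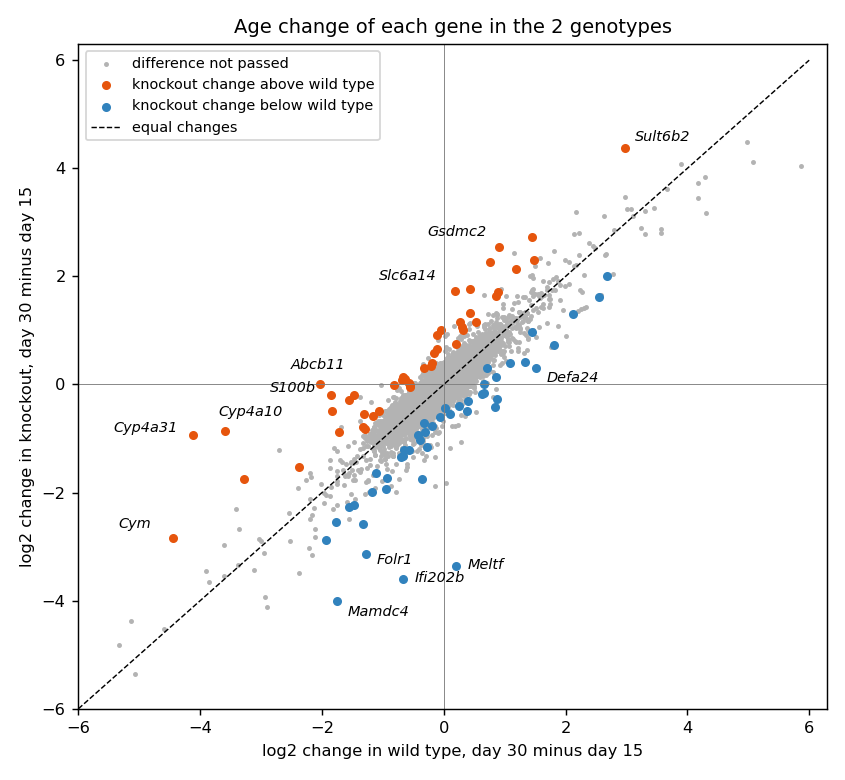
Log2 change with age in wild type (horizontal axis) and in knockout (vertical axis), 1 point per gene for 19938 genes. The dashed line marks equal changes, and the coloured points are the 91 genes whose changes differed by test, 46 above the line (orange) and 45 below (blue), with Meltf and Cyp4a31 among the farthest from it.

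Among genes that fell more in the knockout, several belonged to endocytosis and were high in its day 15 arrays. Meltf, a membrane-bound relative of transferrin, read 10.26, 10.69 and 10.11 at day 15 and 6.97 to 7.05 at day 30 in the knockout. It did not pass with age in wild type (0.21, limma adjusted p = 0.21), and the difference was -3.56 (SE 0.17, limma adjusted p = 5.9e-07). Mamdc4 changed by -4.01 in the knockout against -1.76 in wild type (difference -2.25, limma adjusted p = 9.3e-05), Folr1 changed by -3.13 against -1.28 (difference -1.84, limma adjusted p = 0.0029) and Dab2 by -2.88 against -1.94 (difference -0.94, limma adjusted p = 0.034). These last 3 were 3 of the 9 endocytosis genes (33.3%, against 0.226% of all genes). For the other 6 the difference did not pass. Among these were Cubn (-4.52 in the knockout against -4.60 in wild type, limma adjusted p = 0.98) and Amn (-0.40 against -0.19, limma adjusted p = 0.77). The lysosomal exporter of sialic acid Slc17a5 differed by -1.26, the mannosidase Man2b2 by -0.56, the amine oxidase Aoc1 by -1.38 and the interferon-inducible Ifi202b by -2.93. Knockout day 15 replicate 1 was low for Ifi202b, at 8.62 against 9.90 and 9.62.

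Of 10 Paneth cell genes 3 rose less in the knockout than in wild type (30%, against 0.226% of all genes). For the other 7 the difference did not pass. Defa24 read 12.08, 12.30 and 12.31 and then 12.59, 12.64 and 12.41 in the knockout, a rise of 0.31 against 1.51 in wild type (difference -1.20, SE 0.12, limma adjusted p = 4.7e-04). Lyz1 rose by 0.41 against 1.33 (difference -0.92, limma adjusted p = 0.0025) and Itln1 by 0.40 against 1.10 (difference -0.70, limma adjusted p = 0.0016). At day 15 the 3 wild type arrays read 10.51 to 10.60 for Defa24, below each knockout array. At day 30 Defa24 was still higher in the knockout (mean 12.55 against 12.08, limma adjusted p = 0.0091). The medians of all 10 genes were 0.48 in the knockout and 1.13 in wild type. The list mean was higher in the knockout at both ages. At day 15 it read 10.40, 10.42 and 10.60 against 9.66, 9.67 and 9.53 in wild type. At day 30 it read 11.03, 11.01 and 10.98 against 10.45, 10.64 and 10.54.

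Of 24 fatty acid oxidation genes 5 had an age change in the knockout above that in wild type (20.8%, against 0.231% of all genes). In 0 it was below. Cyp4a31, a fatty acid hydroxylase, read 6.06, 5.11 and 5.54 at day 15 and 4.61, 4.74 and 4.55 at day 30 in the knockout, while in wild type it fell by 4.12 from values of 9.32 to 9.64 (difference 3.19, SE 0.25, limma adjusted p = 9.3e-05). Cyp4a10 fell by 0.86 in the knockout against 3.59 (difference 2.73, SE 0.16, limma adjusted p = 5.0e-06). These 2 are near-identical relatives that may share probes, and at such low levels the knockout's own falls are understated. The acyl-CoA dehydrogenase Acadm changed by 0.11 in the knockout, which did not pass, against -0.63 (difference 0.74, limma adjusted p = 0.0059). Ehhadh and Bdh1, named after their values had been seen, were at -0.01 and -0.49 in the knockout against -0.56 and -1.06 (differences 0.55 and 0.57, limma adjusted p = 0.016 and 0.020). They are not among the 37 differences of named genes, and their calls were not checked with an array left out.

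Further differences concerned transporters and single genes. The bile salt pump Abcb11 read 5.56, 5.93 and 5.70 and then 5.72, 5.54 and 5.98 in the knockout, with no age change called, against a fall of 2.03 in wild type (difference 2.05, limma adjusted p = 1.2e-04). All 6 knockout values lay under 6.20, the 25th percentile of all gene means, where a fall can hardly show. Wild type fell from a mean of 7.67 to 5.63, so the genotypes differed at day 15 and not at day 30. S100b, a marker of glia among other cells, was at -0.20 against -1.85 (difference 1.65, limma adjusted p = 4.7e-04), and it was the 1 neuron and glia gene whose difference passed. Its knockout means, 6.36 at day 15 and 6.16 at day 30, were likewise near that percentile. The amino acid transporter Slc6a14 rose by 1.73 in the knockout against 0.18 in wild type (difference 1.55, limma adjusted p = 0.0020), from 5.32, 5.62 and 5.27 to 7.46, 7.06 and 6.89. Gsdmc2, a gasdermin with close relatives, rose by 2.55 against 0.91 (difference 1.64, limma adjusted p = 0.015), Slc13a2 by 2.72 against 1.44 (difference 1.28, limma adjusted p = 0.010) and Sult6b2 by 4.37 against 2.98 (difference 1.39, limma adjusted p = 0.024). Sult6b2 began lower in the knockout, at a mean of 8.14 against 10.21. At day 30 its means were 12.51 and 13.19, where the genotypes did not differ by test (limma adjusted p = 0.066). Cym changed by -2.85 against -4.45 (difference 1.60, limma adjusted p = 7.9e-04) and the complement gene C8b by -1.75 against -3.28 (difference 1.53, limma adjusted p = 0.016). The carboxylesterase Ces2a and the drug pump Abcb1a, which did not pass with age in the knockout, were at -0.42 and -0.27 against 0.84 and 0.87 (differences -1.26 and -1.14, limma adjusted p = 0.043 and 0.025).

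**Figure D5:**
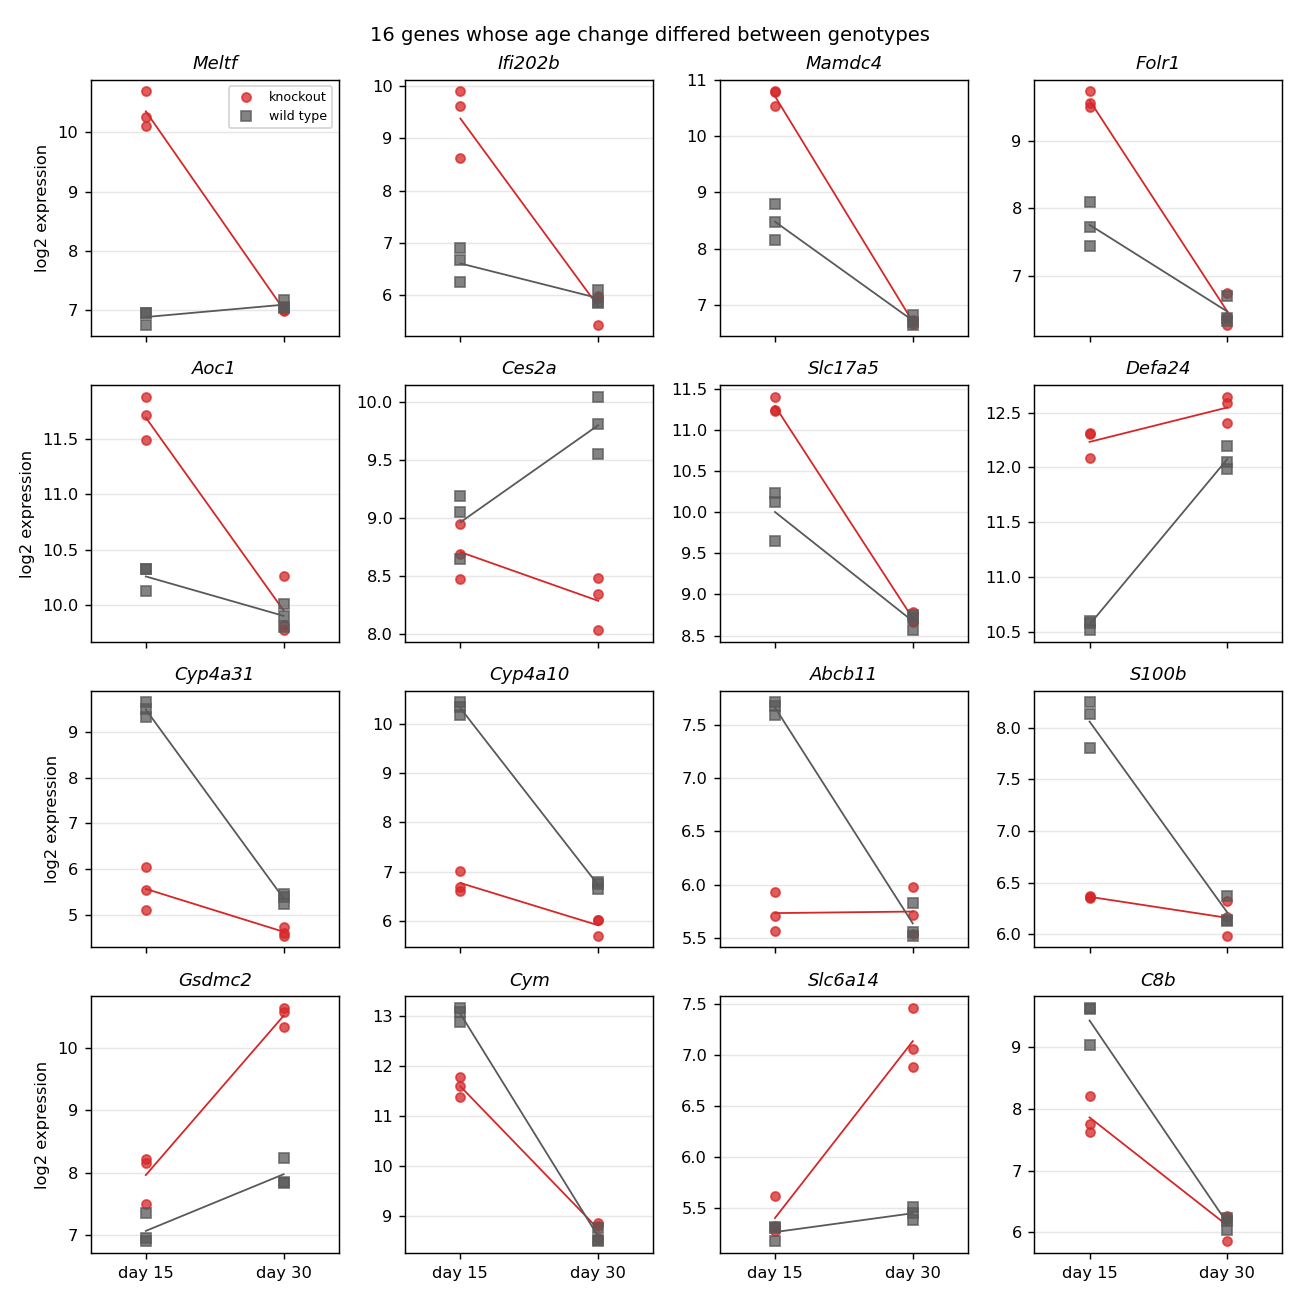
Log2 expression (vertical axis, a scale of its own in each panel) at day 15 and day 30 of the 16 genes with the largest called differences between the age changes, 8 below and 8 above, with red circles for the 3 knockout arrays, grey squares for the 3 wild type arrays and lines through the means. Meltf, Mamdc4 and Folr1 start high in the knockout and meet wild type at day 30, while Cyp4a31, Cyp4a10 and Abcb11 start low in it.

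In 11 genes the age change was called in both genotypes and in opposite directions. Lratd1 fell by 0.40 in the knockout and rose by 0.24 in wild type (difference -0.65, limma adjusted p = 0.011), and the lysosomal galactosidase Gla fell by 0.31 and rose by 0.40 (difference -0.71, limma adjusted p = 0.012). The proton channel Otop3 fell by 0.49 and rose by 0.38 (difference -0.87, limma adjusted p = 0.031). Otop3 was far lower in the knockout at both ages, with means of 8.00 against 10.06 at day 15 and 7.51 against 10.44 at day 30. The prolidase Pepd rose by 0.34 against -0.22 (difference 0.56, limma adjusted p = 0.015) and Ndrg2 by 0.30 against -0.33 (difference 0.63, limma adjusted p = 0.025). The transferrin receptor Tfrc rose by 0.23 against -0.23, and here the difference of 0.47 just missed the threshold (limma adjusted p = 0.0502). The rise of Tfrc was not called without knockout day 15 replicate 3 (limma adjusted p = 0.072).

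Other lists had unequal counts in the genotypes without a called difference in any member. MHC class II genes were 6 higher in the knockout and 0 in wild type, and respiratory chain genes 26 and 10. Interferon-stimulated genes were 14 lower in the knockout and 2 in wild type, where the list mean read 9.36, 9.86 and 10.14 at day 15 and 9.40, 9.08 and 9.52 at day 30. In these 3 lists the difference passed for 0 genes. The same held for the disaccharidase list, the B cell and T cell lists, smooth muscle, extracellular matrix and both enteroendocrine lists. With 3 pools in a group a difference that was not called was not shown to be absent.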

How the data were processed

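Total RNA from 12 duodenal pools (4 groups, 3 arrays each) was measured on a mouse whole-transcript array. The authors deposited log2 expression per feature. The software was Affymetrix Expression Console, version 1.1, and the method RMA, per the submitters' processing notes. The log base was taken from that method and the range of values. RMA's quantile step removes a shift shared by most genes.

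Of 35557 features 21789 had exactly 1 gene symbol in the platform annotation, 1621 several and 12147 none listed. The brightest feature per gene over 12 arrays was kept (999 genes had several), giving 19938 genes, of which 19855 matched RefSeq by Entrez identifier with 0 symbols updated. Promoter sequences are those of RefSeq (GRCm38.p6). Older symbols in the lists were resolved for 3 genes. No array repeated another (highest correlation 0.9953).

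Limma version 3.58.1 in R version 4.3.3 fitted 4 group means to all 12 arrays (8 residual degrees of freedom) with eBayes, and contrasts gave each genotype's age change and their difference. P-values were adjusted over all genes by Benjamini-Hochberg. No fit took account of sex. The code was tested on simulated data: in the knockout age comparison over 19938 genes, 82.1% of 67 genes with a log2 change of 0.5 were called, 98.5% of 67 with a change of 1 and 100.0% of 66 with a change of 2.

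The comparison, the 41 gene lists (733 entries, 656 measured) and the rule for named genes were chosen with earlier results of these data known, so a list's count is a description. The rule names Onecut genes and Ada, the 12 largest non-overlapping rises and falls without predicted loci or antigen receptor genes, the 8 largest differences each way, 6 genes of opposite calls, and per list up to 6 called members by p, up to 3 by p of the difference, and some fixed members. Alternatives were other moderation, filtering, centring, array weights, features, fits on 6 arrays, a replicate block and leaving out each array. Numbers were not taken as pairing the pools, as given with the alternatives.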

Additional observations from a re-analysis of the deposited data

Results flagged for a closer look

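The age change differed between the genotypes, by the test of the difference, for the following named genes (knockout change minus wild type change, log2). For the membrane-bound Meltf the difference was -3.56 and for the interferon-inducible Ifi202b -2.93. For genes of endocytosis, the lysosome and amine breakdown the differences were -2.25 for Mamdc4, -1.84 for Folr1, -1.38 for Aoc1, -1.26 for Slc17a5, -0.94 for Dab2, -0.71 for Gla and -0.56 for Man2b2. Among Paneth cell genes they were -1.20 for Defa24, -0.92 for Lyz1 and -0.70 for Itln1. For fat and bile acid genes they were 3.19 for Cyp4a31, 2.73 for Cyp4a10, 2.05 for Abcb11, 0.74 for Acadm and 0.58 for Abca1. For sterol synthesis they were -0.49 for Idi1 and -0.40 for Sc5d. For drug metabolism they were 1.39 for Sult6b2, -1.26 for Ces2a and -1.14 for Abcb1a. Among transporters and channels they were 1.55 for Slc6a14, 1.28 for Slc13a2, 0.77 for Slc16a10, -0.64 for Cldn2 and -0.87 for Otop3. Peptidases and glycan enzymes had 0.74 for Mme, 0.56 for Pepd and 0.62 for Gcnt3. The remaining ones were 1.65 for S100b, 1.64 for Gsdmc2, 1.60 for Cym, 1.53 for C8b, 0.63 for Ndrg2, -0.65 for Lratd1 and -0.82 for Cblif, the gastric intrinsic factor.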

How the results depend on the processing

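The knockout age change kept its count of 6178 within 1.5 times under each alternative other than the 2-fold limit, which gave 461. Leaving out 1 array gave 4990 to 6258. The count of differences was 91, against 155 with array weights, 177 with an intensity trend, 27 at 2-fold or more and 47 to 123 with 1 array left out. Of 249 named calls of the knockout age change 234 held under each alternative, and of 37 named differences 20 did; 0 reversed. Values that were not called turned in sign for Onecut3 (-0.06 to 0.12 with 1 array left out), Abcb11 (-0.10 to 0.12, and -0.04 with array weights), Gcg (-0.16 to 0.17, 0.01 with array weights and 0.03 with centred arrays) and Xist (-0.11 to 0.13, and 0.04 with centred arrays); the cause was not tested. Replicate numbers did not pair the knockout pools (same-number deviations correlated at 0.037, -0.080 and -0.252). Between the wild type ages they correlated at 0.290, 0.059 and 0.169. Between the genotypes the values were 0.359, -0.009 and 0.261 at day 15 and -0.115, 0.122 and -0.244 at day 30. A fit with the replicate block called 6039 genes for the knockout, 5726 for wild type and 80 differences. The number of pools limits precision, and dim genes have understated changes.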
